A study of Glycine max with 102 samples.

Results

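In leaves of 102 soybean accessions, 200 genes were picked out for a low spread of transcript level between libraries. They were chosen by rule from the authors' table of 56044 genes. Of the 4661 genes with a mean of 20 to 200 FPKM over all libraries (fragments counted per length of transcript and per size of library), they were the 200 with the lowest standard deviation (SD) of log2(FPKM + 1). They make up 4.29% of those 4661 genes, which are called candidates here. Their low spread over the 102 libraries is therefore the reason for their choice and not a result.

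Each library came from 1 accession, sampled as leaves at the V2 stage from plants 18 days old. There were 61 milestone cultivars, known from the breeding history of soybean, and 41 soyNAM parents, the founders of a population made by crossing many lines to a common parent. Of the founders 18 were elite lines, 15 were LG lines (bred from diverse ancestors) and 8 were PI lines (introduced from collections). These classes follow the public family numbers of the population, which the labels do not state, and no column is tied to a named cultivar. With 1 library per accession, every spread below holds differences between genotypes, plants and library preparations together, and in whole leaves fewer cells of a type and less RNA per cell cannot be told apart. The depth of the libraries is unknown.

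Transcripts whose level varies little are used in plant work as internal standards: the amount of another transcript is read against them in quantitative PCR, and they anchor the scaling of RNA-seq libraries. Such genes often serve functions that every cell needs, but steady levels are a property of the samples at hand and have to be measured in them. In leaves, a large part of the transcript pool follows the circadian clock, so sampling time and clock state are known to move many transcripts. The deposited table holds gene IDs only, so what the 200 genes encode is not stated here, and the leaf label could not be checked against marker genes. No sequence or genome coordinate was used; chromosome and gene order were read from the IDs.

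The gene with the lowest spread, Glyma.17G118600, had an SD of 0.106 on the log2(FPKM + 1) scale and ran from 16.9 FPKM in milestone library 27 to 24.1 FPKM in milestone library 47, with a median of 20.2 FPKM. Its highest library was thus 1.43 times its lowest, the smallest such ratio among the 200 genes. Glyma.04G255700, the next in order with an SD of 0.109, ran from 19.8 to 34.6 FPKM around a median of 25.8 FPKM. At the other end of the choice stood Glyma.06G070300 and Glyma.10G162000, at ranks 199 and 200 with an SD of 0.205 each. The first ran from 16.7 to 49.2 FPKM and the other from 30.8 to 64.4 FPKM. Just outside, Glyma.20G181300 and Glyma.18G050900 had an SD of 0.205 and 0.206 and ran from 14.3 to 30.5 and from 19.6 to 42.9 FPKM. No gap in spread separates the last genes taken from the first left out.

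Over the 200 genes the SD had a median of 0.181, and the coefficient of variation of FPKM a median of 12.9%. The corresponding medians over the candidates were 0.426 and 28.8%. A highest value less than 2 times the lowest was found in 69 of the 200 genes, and one less than 3 times the lowest in 194. Glyma.07G029500 had the widest range, 8.30 FPKM in milestone library 47 to 34.5 FPKM in milestone library 60, and was named after its values were seen. None of the 200 genes had a value of 0 in the 102 libraries, whereas 46 candidates did.

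**Figure D1:**
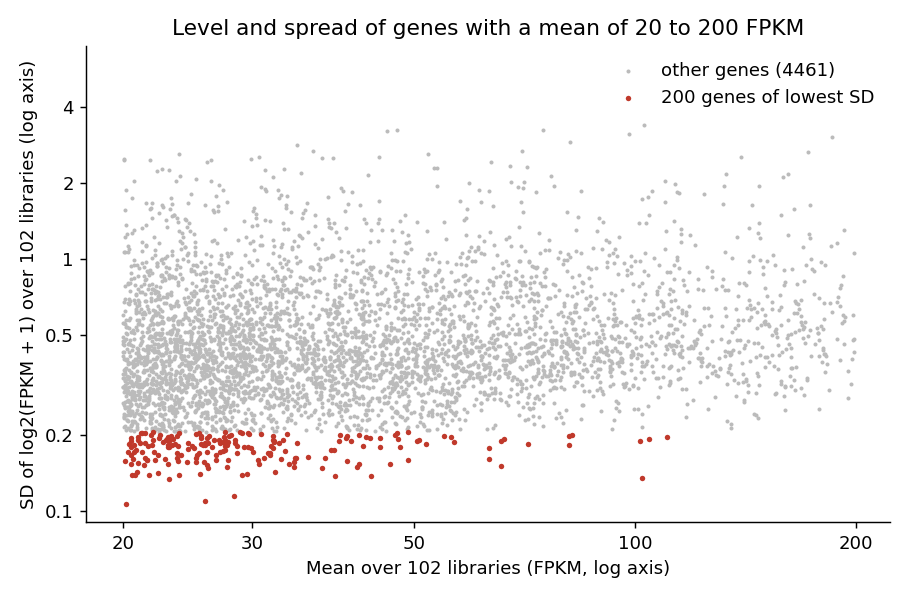
Each point is 1 of the 4661 genes with a mean of 20 to 200 FPKM, plotted by its mean over 102 libraries (FPKM, log axis) and the SD of log2(FPKM + 1) (log axis). Red points are the 200 genes of lowest SD, at 0.106 to 0.205; most lie between 20 and 30 FPKM and 4 lie at 100 FPKM or more.

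Most of the 200 genes had a mean near the lower limit of 20 FPKM that the rule set. The levels below thus hold for that range only: with 10 to 400 FPKM, 53 of the 200 were chosen again. Of the 200 genes 127 had a mean between 20 and 30 FPKM, which is 7.24% of the 1754 candidates in that band. At 100 to 200 FPKM there were 4 among 466 candidates, or 0.858%. The median SD of candidates was 0.393 in the lower band and 0.511 in the upper. Glyma.10G048400 and Glyma.17G118600 were the lowest by mean, at 20.1 ± 2.39 and 20.2 ± 1.57 FPKM (SD, n = 102). The highest was Glyma.11G134900, at 110 ± 15.1 FPKM, followed by Glyma.09G040100, which ran from 68.1 to 135 FPKM. Glyma.13G205600, named after its values were seen, combined a high level with rank 5 by SD: it ran from 73.8 FPKM in NAM10 to 133 FPKM in NAM31 around a median of 102 FPKM.

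Gene IDs carry the chromosome, and the 200 genes came from all 20 chromosomes and 1 unplaced sequence. Chromosome 8 held the most, 24 of its 370 candidates or 6.49%, and chromosome 19 the smallest share, 5 of 217 or 2.30%. Beside the 200 genes in the order of IDs stood 51 candidates, of which 0 were themselves among the 200. Of all 1018 candidates that stand beside another candidate, 51 were among the 200, so nothing is read from the 0. The neighbours of the 200 genes had a median SD of 0.443, close to the 0.425 of those 1018 candidates. The closest pair, Glyma.08G224200 and Glyma.08G224400, lay 2 steps apart in that order.

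Among 6 IDs in use as soybean reference genes, which is known from outside the table, some were within the choice and some outside it. Glyma.12G051100 was among the 200 at rank 22, with 15.3 FPKM in milestone library 47, a median of 27.9 FPKM and a highest value of 35.7 FPKM. Glyma.12G020500 was at rank 95, from 19.5 FPKM in Parent to 55.5 FPKM in milestone library 47. Outside the choice, Glyma.18G290800 ranked 570 among the candidates, at an SD of 0.255, and Glyma.02G276600 ranked 1825, at 0.378. Glyma.12G024700 ranked 4189, at an SD of 0.911, with 23.6 to 579 FPKM. Glyma.20G130700 fell below the lower limit of mean level, at 13.5 FPKM, with an SD of 0.240.

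Spread within the classes is part of the spread that chose the 200 genes, so low values there follow from the choice and are given as a description. Among the classes, elite lines had the highest median. The median SD of log2(FPKM + 1) over the 200 genes was 0.190 in elite lines (jackknife SE over libraries 0.029, n = 18), 0.159 in milestone cultivars (SE 0.013, n = 61), 0.142 in LG lines (SE 0.022, n = 15) and 0.128 in PI lines (SE 0.015, n = 8). Over all candidates the medians were 0.458, 0.313, 0.311 and 0.270 in the same order. Each neighbouring pair in this order lay within the sum of its errors, and the order was not tested. In elite, LG and milestone libraries all 200 genes lay at or below the candidates' median SD of that class, and 199 did so in PI lines. The elite class holds 4 of 5 soyNAM libraries that stand apart from the rest, Parent, NAM10, NAM11 and NAM06, the other being NAM31 among the LG lines. In these 5 the candidates' median absolute deviation was the highest of the soyNAM libraries, from 0.613 in NAM11 to 0.734 in Parent. Without the 4 elite libraries the elite median was 0.128 in 14 libraries, and the candidates' median 0.210. The LG median was 0.121 without NAM31, and the milestone median 0.143 without libraries 47 and 54. Leaving out deviant libraries lowers an SD by itself.

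**Figure D2:**
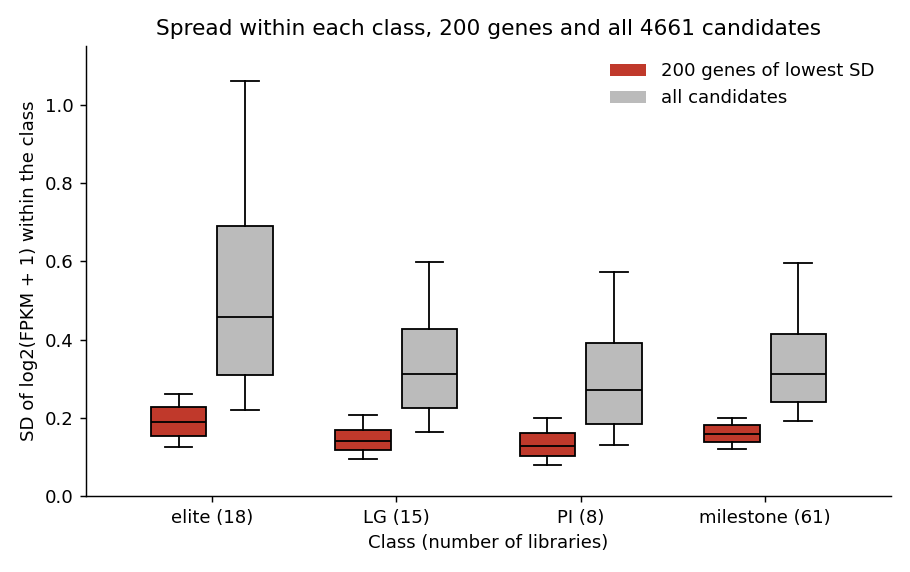
Boxes show the SD of log2(FPKM + 1) within each class for the 200 genes (red) and all 4661 candidates (grey); the line is the median, the box the middle range from the 25th percentile up, and whiskers reach the 10th and 90th percentiles. The elite class has the highest median in both sets, 0.190 and 0.458.

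Some of the 200 genes had a higher SD in at least 1 class than over all libraries. Only Glyma.07G210800, at 0.286 in PI lines, exceeded the candidates' median SD of its class, 0.270. Glyma.06G070300 had the highest SD among elite lines, 0.357, and an SD of 0.231 among LG lines. NAM05 stood at 49.2 FPKM and the elite median at 22.3 FPKM. Glyma.09G052500 followed among elite lines at 0.325, with 14.7 to 36.5 FPKM and NAM06 highest. Among LG lines, Glyma.01G015000 reached 37.9 FPKM in NAM31 against an LG median of 19.3 FPKM, for an SD of 0.257, and Glyma.03G228200 ran from 39.5 to 72.9 FPKM, at an SD of 0.253. In PI lines Glyma.07G210800 ran from 22.2 to 41.2 FPKM around 29.3 FPKM, and Glyma.14G053300 from 16.4 to 29.6 FPKM around 25.2 FPKM. Within milestone cultivars the SD did not exceed 0.224 for any of the 200 genes, the value of Glyma.13G243700 and of Glyma.15G055100. Their milestone medians were 19.8 and 26.4 FPKM and their highest values 38.3 FPKM in library 54 and 47.9 FPKM in library 47. For 111 of the 200 genes the elite class had the highest SD of the 4, and for 96 the PI class had the lowest. The same was not counted over the candidates. Their median SD was also highest in elite lines, at 0.458, and lowest in PI lines, at 0.270. The counts are therefore not read as a trait of the 200 genes.

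Whether steadiness in one collection is also found in the other can be read in libraries that a choice did not use. When the same rule was applied to the 61 milestone libraries alone, its 200 genes had a median SD of 0.191 in the 41 soyNAM libraries, against 0.390 for all genes in the same range of level. Of them 168 lay in the lowest 25% of spread among those genes in soyNAM, 119 in the lowest 10% and 7 above the median. In the reverse direction, the 200 genes chosen in soyNAM had a median SD of 0.182 in milestone cultivars against 0.310, with 162 in the lowest 25%, 115 in the lowest 10% and 12 above the median. The lists themselves had 59 genes in common, 29.5% of each. Among the 200 genes of the whole series, 110 were in the milestone choice, 92 in the soyNAM choice, 51 in both and 49 in neither.

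**Figure D3:**
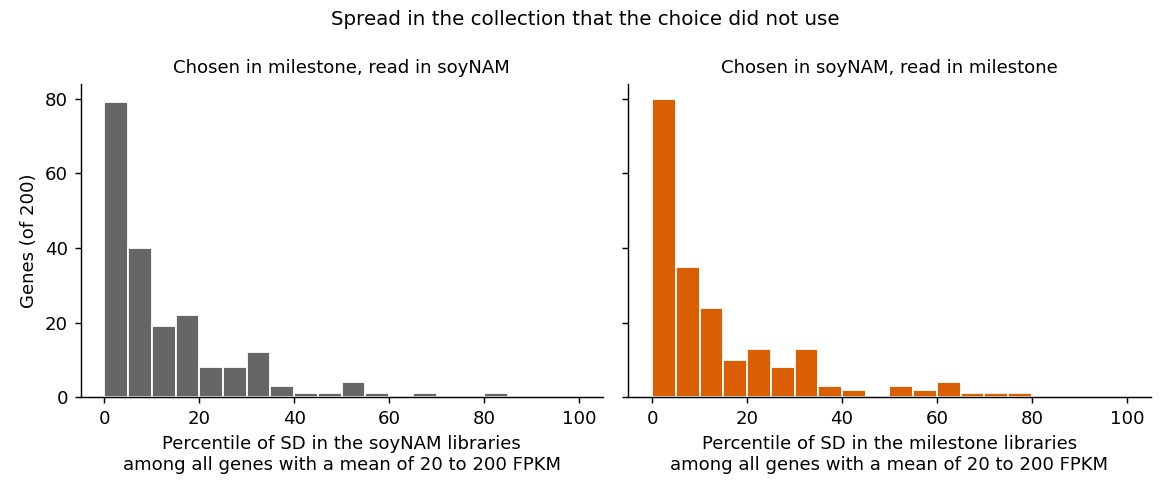
Histograms of where 200 genes chosen in 1 collection fell by their SD in the other collection, as a percentile among all genes with a mean of 20 to 200 FPKM where they were chosen (0 is the steadiest). On the left, 119 genes of the milestone choice lie in the lowest 10% in soyNAM; on the right, 115 genes of the soyNAM choice do so in milestone cultivars.

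The exceptions, named after their values were seen, differed between the directions. Of the milestone choice, Glyma.11G041300 ran from 16.2 to 26.3 FPKM in milestone cultivars and was at 2.05 FPKM in Parent and 2.27 FPKM in NAM10, where the next soyNAM value was 7.70 FPKM. Glyma.12G051700 ran from 49.4 to 89.8 FPKM in milestone cultivars and stood at 8.55 FPKM in NAM10 and 13.4 FPKM in Parent, with 46.6 FPKM as the next lowest soyNAM value. Of the soyNAM choice, Glyma.01G163900 ran from 70.7 to 122 FPKM in soyNAM parents and from 27.5 FPKM in library 56 to 133 FPKM in library 54 among milestone cultivars. Glyma.10G050700 reached 141 FPKM in library 54, where the next milestone value was 52.2 FPKM. Steadiest in the soyNAM choice was Glyma.17G118600, which also had the lowest spread of its candidates in milestone cultivars, an SD of 0.0942.

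Low spread left room for small differences between the collections. Glyma.08G271700 had the largest difference of the 200 genes: it was at 21.4 to 29.8 FPKM with a median of 23.2 FPKM in soyNAM parents, and at 25.1 to 34.5 FPKM with a median of 30.1 FPKM in milestone cultivars. The ranges overlapped, and the log2 fold change of soyNAM against milestone was -0.34 (SE 0.023). Glyma.10G189500 was lower too, with medians of 18.3 and 22.7 FPKM and a fold change of -0.29 on the log2 scale. Higher in soyNAM parents were Glyma.17G219600, with medians of 24.3 and 19.6 FPKM and a difference of 0.29 on the log2 scale (SE 0.030), and Glyma.06G069200, with medians of 47.4 and 38.5 FPKM and a difference of 0.28. Ranges of the collections that did not overlap were found for 1.03% of all genes tested and for 0 members, whose separation the choice limited. The labels give no growth or sequencing batch, so a batch that followed the collections cannot be told apart from them.

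In limma with Benjamini-Hochberg adjustment over 30101 genes, 116 of the 200 passed an adjusted p of 0.05 between the collections, 50 higher and 66 lower in soyNAM parents. Of all genes tested 74.8% passed, 37% higher and 37.8% lower. Because the choice limited how far a gene could differ between the collections, nothing is read from the members' count. After median-of-ratios scaling 76 were higher and 44 lower, and the split of all genes moved the same way, to 40.2% higher and 34.9% lower. The median absolute log2 fold change was 0.09 among the 200 genes and 0.29 among all genes tested, and 15 of those that passed differed by at least 0.2 on the log2 scale. Of the variance of a member, a median of 6.89% lay between the collections, and of a candidate 19.5%. The choice used these same libraries and limited the members' fold changes and this share too, so both are given as a description.

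Within soyNAM, the 200 genes showed 0 calls between LG and elite lines in limma, where 0.0266% of all genes passed (0.00997% higher and 0.0166% lower in LG lines), and 20 of the 200, or 10%, had an unadjusted p under 0.05, beside 8.11% of all genes. Their log2 fold changes reached at most 0.18 in size. Between PI and elite lines 14 of the 200 passed, 12 higher and 2 lower in PI lines, beside 3.45% of all genes tested, 2.14% higher and 1.3% lower. This count too rests on libraries that the choice used. Glyma.07G010300 was at 33.7 to 43.3 FPKM with a median of 40.8 FPKM in PI lines and at 26.5 to 35.5 FPKM with a median of 31.9 FPKM in elite lines, a log2 fold change of 0.34 (SE 0.061). Glyma.02G204000, at medians of 28.4 against 22.1 FPKM, had a log2 fold change of 0.31, and lost its call with equal summed FPKM and in a fit of PI and elite lines alone. Going the other way, Glyma.17G219600 had medians of 20.8 and 26.1 FPKM and a log2 fold change of -0.31, and lost its call in that fit of 2 classes. Glyma.04G224900, at 19.2 to 24.3 FPKM in PI and 20.8 to 28.2 FPKM in elite lines, had one of -0.20, and lost its call in 4 of 11 other fits. Not in every fit did the count move with the share of all genes: without Parent and NAM10 13 of the 200 passed, beside 3.78%. In the fits given next both moved the same way. In a fit of PI and elite lines alone 4 of the 200 passed, beside 0.957% of all genes. Without the 5 libraries that stand apart 34 did, beside 11.7%, and with equal summed FPKM in every library 3 did, beside 1.77%.

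The milestone choice used no soyNAM library, so the fold changes of its genes within soyNAM are independent of that choice. The main limma fit is not, since its estimate of spread includes the milestone libraries in which these genes were chosen for low SD. A fit of PI and elite lines alone uses no milestone library, and there 6 of the 200 genes passed, beside 0.957% of all genes tested. The share of that choice's candidates was not counted in this fit. Of all genes tested 3.45% passed between PI and elite lines in the main fit. In the main fit, of the 200 genes of the milestone choice 22 were higher and 3 lower in PI than in elite lines in limma at an adjusted p of 0.05, beside 4.00% of all 4624 candidates of that choice. Between LG and elite lines 0 passed, beside 0.0216% of the candidates, and 36 of the 200, or 18%, had an unadjusted p under 0.05, beside 11.1%. The median absolute log2 fold change of these genes was smaller than among candidates, 0.11 against 0.16 for PI and 0.06 against 0.11 for LG lines, both against elite lines. The count of 25 for PI lines was 6 with equal summed FPKM, where 1.77% of all genes passed, and 60 without the 5 libraries that stand apart, where 11.7% did.

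LHY genes encode MYB repressors that peak around dawn, and Parent and NAM10 were known beforehand for low LHY transcripts. LHY2b (Glyma.03G261800) stood at 0.196 FPKM in Parent and 0.239 FPKM in NAM10, while the other 100 libraries ran from 36.4 to 531 FPKM. As both libraries were singled out by a measured value, each is given on its own, against the median and range of the other 100, with no test. The 200 genes were on the whole slightly low there. Their median log2 deviation was -0.14 in Parent, with 131 of 200 genes below the median, and -0.20 in NAM10, with 145 below. The candidates deviated by medians of -0.55 and -0.50, with 3494 and 3403 of 4661 below, and all genes tested by -0.01 in each. Both libraries were among the 102 that the choice used, so genes far from the median there were left out by the rule: 0 of the 200 deviated by more than 1 on the log2 scale, and of the candidates 39.7% did in Parent and 39.3% in NAM10.

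This small shift depended on scaling. After quantile normalization the median deviation of the 200 genes was 0.16 in Parent and -0.07 in NAM10, and with equal summed FPKM in every library it was 0.46 and 0.22. The latter scaling moved the median of all genes by 0.48 and 0.33, so that relative to all genes the 200 stood at -0.02 and -0.10. After quantile normalization they stood at 0.12 and -0.06 relative to all genes, so that in Parent the direction stayed reversed. The sum of FPKM over all genes was 459817 for Parent, 519785 for NAM10 and 700221 at the median of the 102 libraries. The part of these sums in the shift was not tested.

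In Parent 27 of the 200 genes lay below the lowest of the other 100 libraries and 3 above the highest, and in NAM10 40 lay below and 3 above. These directions depended on scaling: in Parent 8 lay below and 30 above after quantile normalization, and 0 below and 45 above with equal summed FPKM. In NAM10 the counts were 23 below and 10 above after quantile normalization, and 0 below and 21 above with equal summed FPKM. All genes tested moved too. After quantile normalization 11.9% of them lay below and 11.8% above in Parent, and 11.6% and 10.8% in NAM10. With equal summed FPKM 8.07% lay below and 22.9% above in Parent, and 7.57% and 17% in NAM10. With the deposited values 23% of all genes tested lay outside that range in Parent, 9.12% above and 13.9% below. In NAM10 22.3% did, 10.1% above and 12.2% below. Of the candidates 34.3% did in Parent, 4.78% above and 29.5% below, and 33.5% in NAM10, 5.36% above and 28.2% below. Parent was lowest in Glyma.08G155200, at 25.8 FPKM with NAM10 at 31.4 FPKM, while the other 100 libraries ran from 36.8 to 63.9 FPKM around a median of 48.3 FPKM. Next came Glyma.11G045300, at 16.8 FPKM in Parent and 18.8 FPKM in NAM10 against 20.7 to 37.9 FPKM. NAM10 was lowest in Glyma.16G219000, at 17.0 FPKM with Parent at 24.1 FPKM, against 24.8 to 44.4 FPKM elsewhere. Glyma.15G060300 separated the libraries, at 14.7 FPKM in NAM10, below the range of 20.7 to 35.7 FPKM, and 27.8 FPKM in Parent, within it.

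Fewer genes stood above that range. Glyma.08G031800 was highest in both, at 39.9 FPKM in Parent and 43.2 FPKM in NAM10, above the 14.3 to 36.4 FPKM of the other 100 libraries and their median of 25.7 FPKM. Glyma.07G110200 stood at 34.2 FPKM in Parent, within the range of 15.1 to 38.6 FPKM, and Glyma.02G072700 at 27.7 FPKM in NAM10, within 13.7 to 27.9 FPKM.

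A choice that leaves out Parent and NAM10 lets them be read as libraries not used. It kept 174 of the 200 genes and took 26 others. Its 200 genes had a median deviation of -0.19 in Parent and -0.25 in NAM10, and a median absolute deviation of 0.25 and 0.31, beside 0.75 and 0.74 for the candidates. More than 1 on the log2 scale separated 12 of them from the median in Parent and 16 in NAM10, which is 6% and 8%, against 39.8% and 39.2% of candidates. Outside the range of the other 100 libraries, over which these genes were chosen, lay 51 of them in Parent and 67 in NAM10. These were 25.5% and 33.5%, beside 34.3% and 33.4% of the candidates of that choice.

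The 26 genes that this choice added were steady in 100 libraries but not over all 102, so deviations in Parent and NAM10 follow from how they were found and are given as a description. Below the range of the other 100 lay 18 of the 26 in Parent and 20 in NAM10, and above it 3 and 4. Glyma.12G051700 was at 13.4 FPKM in Parent and 8.55 FPKM in NAM10, against 46.6 to 89.8 FPKM around a median of 59.3 FPKM elsewhere. Glyma.01G001300 was at 8.73 and 9.79 FPKM in Parent and NAM10, where the others ran from 25.4 to 50.5 FPKM. Glyma.11G130200 stood high, at 119 FPKM in Parent and 148 FPKM in NAM10 against 32.9 to 65.8 FPKM. Glyma.03G123300 did as well, at 65.0 and 89.9 FPKM against 27.1 to 64.4 FPKM. These 4 were named after their values were seen.

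**Figure D4:**
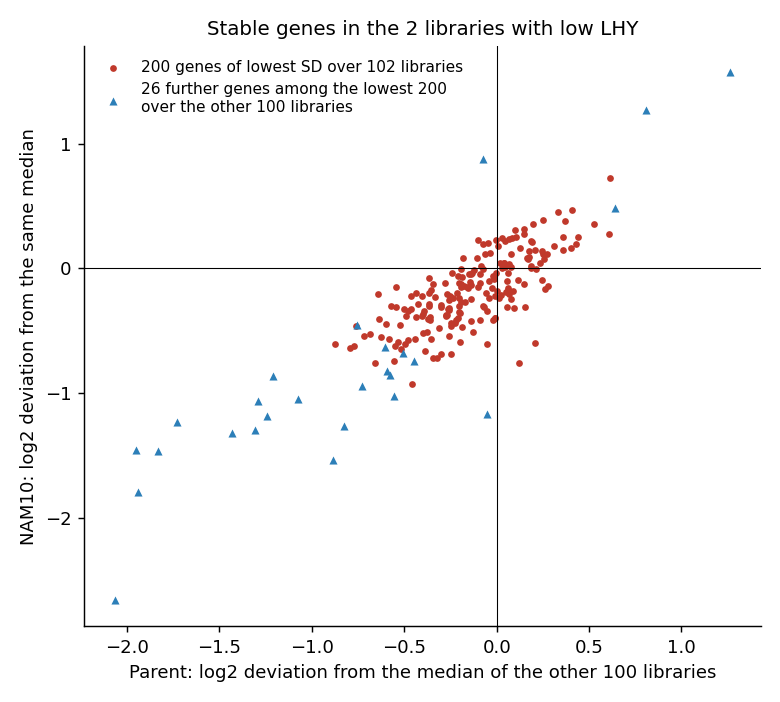
Each point is 1 gene, plotted by its log2 deviation in Parent (x axis) and NAM10 (y axis) from the same median, that of the other 100 libraries, which the axes therefore share. Red circles are the 200 genes, which stay within 1 on both axes; blue triangles are the 26 genes that a choice without these libraries added, from -2.07 for Glyma.12G051700 to 1.26 for Glyma.11G130200 in Parent.

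Across all libraries, departures of the 200 genes were concentrated in a few. The summed FPKM of the 200 genes ran from 5722 in NAM10 to 7335 in NAM06. Its coefficient of variation was 3.46%, beside 10.1% for summed FPKM over all genes. The genes were chosen for low spread over these same libraries, so the lower value is a description and not a result. In 61 of 102 libraries 0 of the 200 genes deviated from their median by more than 0.5 on the log2 scale. Library 54 had 58 such genes, library 47 had 41, NAM10 31, NAM06 30, NAM31 28, NAM11 25, Parent 23 and library 60 22. These 8 libraries held 258 of the 323 such values among 20400, the lowest value of 127 of the 200 genes and the highest of 117. Such values were not counted over the candidates. The candidates' median absolute deviation was also high there, from 0.401 in library 47 to 0.734 in Parent. Its median over the 102 libraries was 0.249. The choice used all these libraries and so limited departures in each.

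For the 200 genes, milestone libraries 47 and 54 had the widest spread, with members going both ways. Over the candidates, Parent and NAM10 had the highest median absolute deviation, 0.734 and 0.733. The middle of the 200 genes in library 54 was at a log2 deviation of 0.05, with the 10th and 90th percentiles at -0.56 and 0.61, and in library 47 at -0.03, from -0.53 to 0.48. Library 54 held the lowest value of 29 members and the highest of 35, and library 47 the lowest of 28 and the highest of 26. Summed FPKM was 864712 in library 54, the highest of all, and 678641 in library 47. In NAM10 and Parent the lowest values of 32 and 18 members were found and the highest of 3 and 1. NAM06 and NAM31 were on the high side, with the highest values of 20 and 19 members and the lowest of 2 each.

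**Figure D5:**
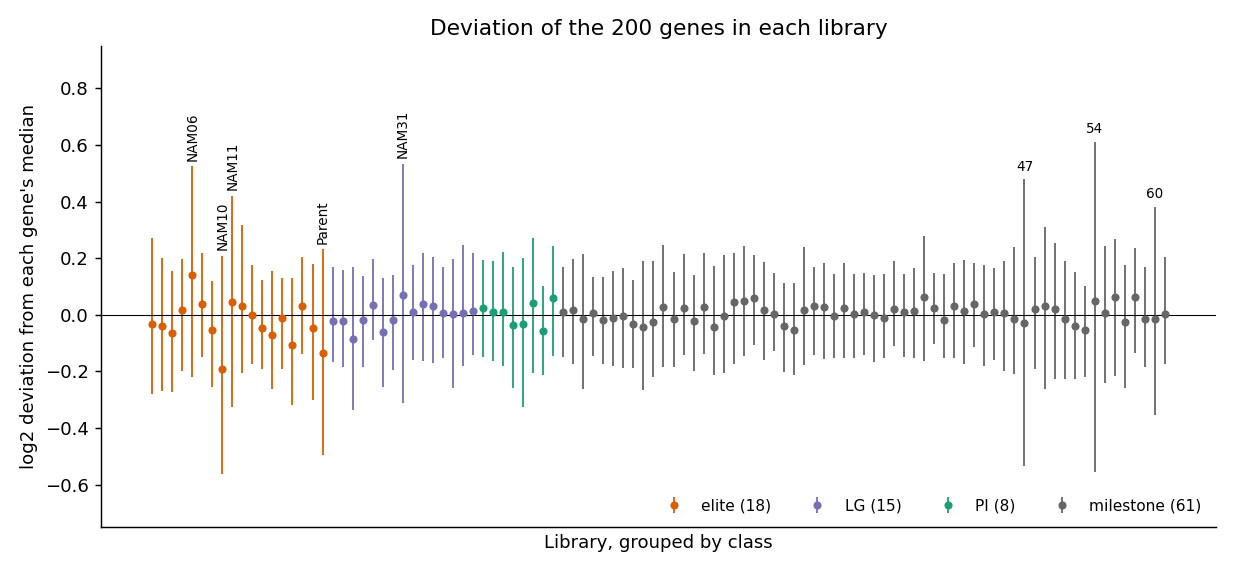
Log2 deviation of the 200 genes from each gene's median over 102 libraries, 1 point per library at the median over genes, with bars from the 10th to the 90th percentile, coloured by class. Libraries 54 and 47 have the longest bars, NAM10 has the lowest median at -0.19 and NAM06 the highest at 0.14.

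The membership of the 200 rested on the unit and on single libraries to different degrees. Without library 54 the same rule kept 179 of them, and without libraries 47 and 54 173. With equal summed FPKM in every library, 87 of the 200 were chosen again, and with the range of means widened to 10 to 400 FPKM 53 were.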

How the data were processed

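RNA was measured in leaves of 102 accessions, 1 library each. The authors deposited FPKM values for 56044 gene IDs, with the suffix Wm82.a2.v1. Trimmomatic 0.32, STAR 2.4.1c and Cufflinks 2.2.1 are named in the submitters' processing notes; the annotation, read filters and use of strand are not given in the sources used here. So reads of genes that overlap or lie antisense to each other may be mixed, and near-identical copies can share reads. FPKM keeps no counts, so depth is unknown and no counting interval is given. A value of 0 can be a failed estimate. Columns with a bare number were read as milestone cultivars; the soyNAM classes used family numbers (up to 23 elite, 24 to 39 LG, from 40 PI), and Parent was counted as elite. All columns were used. RefSeq's table matched 0 of the IDs, so groups by function, protein relatives and promoters were not examined.

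Values were analysed as log2(FPKM + 1), which understates changes of low genes, in Python 3.11.15 (pandas 2.3.3, numpy 2.4.6, matplotlib 3.10.9) and R 4.3.3 (with version 1.17.8 of data.table). Contrasts were fitted with limma 3.58.1 (mean trend, 2-sided, Benjamini-Hochberg) over the 30101 genes whose mean reached 1 FPKM; class contrasts shared 1 estimate of spread over all libraries, and p-values measure differences against the spread between accessions. The fits and the choice were tested on simulated data. The members, lists and tests were chosen with earlier results of these data known. Since IDs carry no names, at most 2 each way were named in each list, plus those said to be named after their values were seen. Alternatives were other pseudocounts, filters, scalings, measures of spread and sets of libraries; equal summed FPKM, leaving out libraries 47 and 54 or any single library, and all alternatives for the median deviation in Parent and NAM10 were added after seeing the data, as were those for the milestone choice beyond pseudocount and scaling.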

Additional observations from a re-analysis of the deposited data

Results flagged for a closer look

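NAM48 stood apart from the other PI lines in 4 genes. It was the highest of the 8 PI lines for Glyma.03G228200, a member, at 69.4 FPKM, where the next value was 59.7 FPKM and the median 58.1 FPKM. Among genes that are no members, it was the highest for Glyma.12G051700, at 69.8 FPKM against a next value of 57.7 FPKM, and for the reference ID Glyma.12G024700, at 325 against 250.4 FPKM. It was the lowest for Glyma.03G123300, at 27.1 FPKM, with the next at 36.8 FPKM. The gap to the nearest PI line was 0.547 to 0.565 of the range of these lines, above Dixon's 95% critical value of 0.526. Dixon's test was run on 48 sets of 8 PI values, those of 45 genes named in the text and 3 library measures, and chance flags about 1 set in 20. NAM48 had the lowest summed FPKM of the PI lines, 558703, and the highest median absolute deviation of the 200 genes, 0.154 on the log2 scale; their part in these values was not tested. The other classes had more than 10 libraries and were not examined in this way.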

How the results depend on the processing

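Of the 200 genes 198 and 197 were kept at pseudocounts of 0.1 and 0.01 FPKM, 182 under median-of-ratios scaling, 156 under quantile normalization and 179 to 200 when single libraries were left out. Fewer were kept with equal summed FPKM (87), the median absolute deviation in place of the SD (131), a range of 10 to 400 FPKM (53), milestone libraries only (110) and soyNAM libraries only (92). With equal summed FPKM the median SD of members was 0.265 in elite, 0.173 in LG, 0.159 in PI and 0.197 in milestone libraries. It was 0.128 in elite lines without the 5 libraries that stand apart and 0.143 in milestone cultivars without 47 and 54. Calls between PI and elite lines numbered 3 with equal summed FPKM, 34 without the 5 libraries and 4 in a fit of both classes alone, against 14; for the milestone choice they were 6, 60 and 6, against 25. For LG against elite lines that choice had 2 calls without the 5 libraries, where 0.362% of all genes passed, and 0 otherwise. The 200 genes had 0 in all 12 limma fits, with 13 to 37 at an unadjusted p under 0.05. The 13 came with equal summed FPKM, 6.5% beside 8.1% of all genes. The 37 came without the 5 libraries, 18.5% beside 10.8%. When members were chosen without both Parent and NAM10, 51 genes lay outside the range of the other libraries in Parent and 67 in NAM10. These were 25.5% and 33.5%, beside 34.3% and 33.4% of the candidates of that choice. With equal summed FPKM 45 of the 200 lay outside in Parent and 21 in NAM10, all above. Of all genes tested 22.9% and 17% lay above with that scaling. The median deviation reversed in Parent under quantile normalization (0.16) and equal summed FPKM (0.46) and in NAM10 under the latter (0.22); it was -0.071 in NAM10 after quantile normalization, and -0.19 and -0.25 in the choice without both. Beyond fewer libraries where libraries were left out, the cause was not tested. The 2 named genes higher and the 2 lower between the collections kept their calls in every limma fit; between PI and elite lines 7 values of the 4 named genes lost theirs. No paired analysis was possible because the labels give no replicate numbers shared between classes. Unknown depth limits every statement on spread.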
